A study of Mus musculus with 18 samples.

Results

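The 55 genes described here encode the machinery of mitosis and chromosome segregation. They were chosen as a list of gene symbols, without a threshold on measured values, and all 55 were found among the 21761 genes of the expression table. RNA was sequenced from 5000 sorted cells per library in 18 libraries, 3 for each of 6 groups made of 3 cell types and 2 genotypes. Naive B cells (nB, B220+ GL7- Fas-) came from lymph nodes of unimmunized mice. Germinal center B cells (GCB, B220+ GL7+ Fas+) were those binding phycoerythrin (PE), taken from lymph nodes 30 days after immunization with PE in adjuvant. For bone marrow plasma cells (BMPC) the sort took CD138+ cells of the marrow, and the study's staining panels also carried antibodies to Ly6-G, CD90.2, CD11c and CD11b to set aside unwanted cells. Dnmt3-deficient mice were Dnmt3afl/fl Dnmt3bfl/fl and carried Cre, which removes the catalytic exons of both de novo DNA methyltransferases. Dnmt3-sufficient mice were Dnmt3afl/fl Dnmt3bfl/fl without Cre, so the floxed alleles and the mixed B6;129S4 background were shared by every group, and Cre was present in the deficient mice only. Mice were 8 to 12 weeks old, and by the study's methods a GCB sample pooled a pair of mice.

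A dividing cell enters mitosis when Cdk1 binds a B-type cyclin. Its chromosomes are then compacted by condensin and topoisomerase II, captured by kinetochores on spindle microtubules, held by the spindle checkpoint until every kinetochore is attached, and pulled apart once the anaphase-promoting complex destroys securin and cyclin B. Most of these genes are transcribed in late S phase, G2 and mitosis, and are kept silent in resting cells. Naive B cells rest in the first gap of the cycle, germinal center B cells are among the fastest dividing cells of the body, and mature plasma cells have left the cycle for good while their plasmablast precursors still divide.

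Promoters of many mitotic genes carry the cell cycle genes homology region (CHR), bound by the MuvB complex with B-Myb or FoxM1, downstream of CCAAT boxes bound by NF-Y. The letters TTTGAA (or TTCAAA on the other strand) and CCAAT (or ATTGG) were therefore searched on both strands in RefSeq promoters of 300 bases, running from 250 bases before the transcription start, on GRCm38.p6. A promoter was given for 46 of the 55 genes and not for Ccna2, Aurkb, Incenp, Spc24, Kif20a, Tpx2, Smc4, Cdca2 and Foxm1. The CHR letters stood in a promoter of 35 of the 46 genes (76.1%), the CCAAT letters in 33 (71.7%), and both in the same promoter in 29 (63.0%). Over the 8368 genes that were tested between GCB and nB and had a promoter, the shares were 14.4%, 43.5% and 5.96%, and over all 27025 genes with a promoter 20.2%, 41.1% and 7.97%. Over all 32851 promoters, counted singly, 6.95% held both. Of the 49 CHR matches in these genes 36 began within 50 bases of the start, and the CHR and CCAAT matches overlapped by a letter or more in 1 place. Overlapping CCAAT matches were each counted, which happened in 1 place, in Ube2c. Promoters are shown for 5 genes with large differences between cell types and for Pttg1, the exception among the 55. Capitals mark the CHR and CCAAT letters, and all sequences read 5′ to 3′ toward the gene.
Ccnb2, chr9:70421505-70421804, minus strand: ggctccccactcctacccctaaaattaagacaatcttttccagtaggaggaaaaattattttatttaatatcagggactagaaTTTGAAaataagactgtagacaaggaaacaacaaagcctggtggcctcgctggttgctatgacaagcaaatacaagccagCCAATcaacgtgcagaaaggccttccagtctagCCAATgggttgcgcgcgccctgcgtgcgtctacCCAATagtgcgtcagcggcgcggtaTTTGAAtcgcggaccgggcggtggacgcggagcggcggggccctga
Cdk1, chr10:69352863-69353162, minus strand: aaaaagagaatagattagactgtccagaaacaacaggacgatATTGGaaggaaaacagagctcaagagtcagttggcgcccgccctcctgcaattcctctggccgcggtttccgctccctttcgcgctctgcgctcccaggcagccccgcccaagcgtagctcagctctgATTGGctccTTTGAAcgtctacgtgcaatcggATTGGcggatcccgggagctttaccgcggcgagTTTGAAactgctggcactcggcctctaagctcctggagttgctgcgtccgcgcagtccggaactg
Ube2c, chr2:164769679-164769978, plus strand: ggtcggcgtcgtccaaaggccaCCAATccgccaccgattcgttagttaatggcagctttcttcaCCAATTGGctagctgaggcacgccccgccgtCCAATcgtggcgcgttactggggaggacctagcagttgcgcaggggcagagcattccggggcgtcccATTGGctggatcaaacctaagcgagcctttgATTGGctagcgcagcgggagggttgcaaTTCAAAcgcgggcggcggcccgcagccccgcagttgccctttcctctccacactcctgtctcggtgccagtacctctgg
Top2a, chr11:99024140-99024439, minus strand: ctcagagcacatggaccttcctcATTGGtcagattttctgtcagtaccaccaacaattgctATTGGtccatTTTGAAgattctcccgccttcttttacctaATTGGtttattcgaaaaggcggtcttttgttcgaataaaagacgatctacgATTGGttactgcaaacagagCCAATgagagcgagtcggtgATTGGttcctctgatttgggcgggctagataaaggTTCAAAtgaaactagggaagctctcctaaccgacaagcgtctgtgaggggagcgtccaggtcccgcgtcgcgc
Ccnb1, chr13:100786437-100786736, minus strand: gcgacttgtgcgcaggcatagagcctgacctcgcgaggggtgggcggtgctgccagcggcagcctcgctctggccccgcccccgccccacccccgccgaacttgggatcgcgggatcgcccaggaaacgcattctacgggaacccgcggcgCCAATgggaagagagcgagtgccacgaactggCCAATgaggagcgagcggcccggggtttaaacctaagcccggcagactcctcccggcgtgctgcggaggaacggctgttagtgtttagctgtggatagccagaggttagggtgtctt
Pttg1, chr11:43425932-43426231, minus strand: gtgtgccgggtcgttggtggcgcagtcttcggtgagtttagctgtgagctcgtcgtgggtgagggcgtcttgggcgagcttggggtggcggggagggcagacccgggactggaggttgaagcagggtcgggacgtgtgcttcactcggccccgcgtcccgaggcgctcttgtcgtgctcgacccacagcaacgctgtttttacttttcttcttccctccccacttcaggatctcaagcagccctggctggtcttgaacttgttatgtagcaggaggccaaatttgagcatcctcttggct
In Cdk1 CHR letters began 15 and 71 bases before the start and CCAAT letters 48, 80 and 208 bases before it. In Ccnb2 CHR letters began 4 bases after and 167 bases before the start, and CCAAT letters 21, 54 and 87 bases before it. The Ube2c CHR began 29 bases before the start, the Top2a matches 23 and 179 bases before it, and each of these promoters held 6 CCAAT matches. The Ccnb1 window held 2 CCAAT matches, 67 and 99 bases before the start, and no CHR letters. The Pttg1 window held neither. The windows of Birc5, Mad2l1, Nuf2, Nusap1, Ncaph and Mybl2, not shown, also held neither, and all of these genes were higher in GCB than in nB. A match is a run of letters and not a shown binding site, and a window without a match says only that the letters are not in it.

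**Figure D1:**
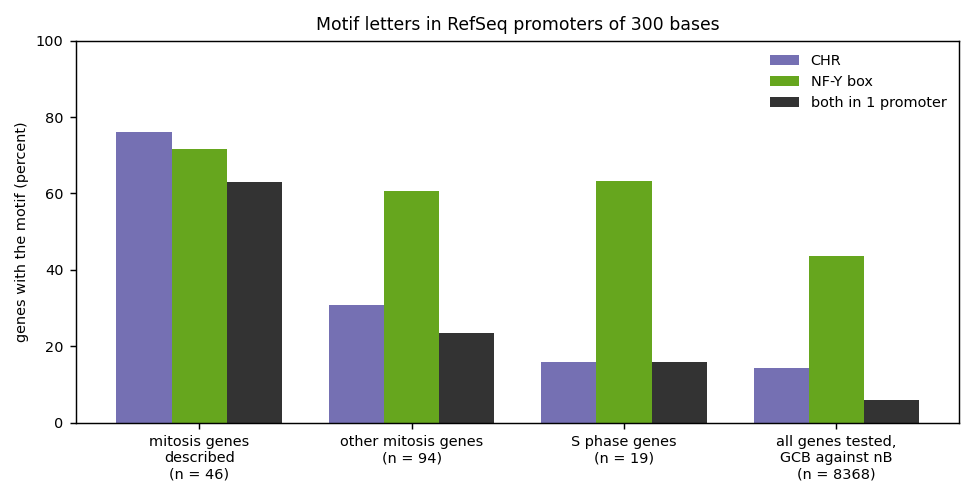
Share of genes (percent, y axis) with the CHR letters, with the letters of the NF-Y box (CCAAT), and with both in 1 promoter of 300 bases, for the 55 genes described (46 with a promoter), 94 other mitosis genes, 19 S phase genes and 8368 genes tested between GCB and nB. Both motifs stood together in 63.0% of the genes described, 23.4% of the other mitosis genes, 15.8% of the S phase genes and 5.96% of the genes tested.

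Levels are given in FPKM, reads on a gene's exons scaled by exon length and by library depth, so that they can be set between genes. Depth was 6692516 to 8987922 reads on genes per nB library, 7644544 to 8903872 per GCB library and 1355231 to 3803197 per BMPC library, and low BMPC values therefore carry the largest counting error. The targeted genes check little, since levels are per gene and reads outside the deleted exons would still count. Dnmt3a was at 2.35 to 5.18 FPKM in the sufficient nB libraries and at 2.24 to 4.33 in the deficient ones, and at or below 3.08 in the 12 libraries of GCB and BMPC. Dnmt3b was at 1.18 to 6.41 FPKM in the sufficient nB libraries and at 0.521 to 8.15 in the deficient ones. It was at or below 1.10 in GCB libraries, 1.37 in sufficient BMPC libraries and 9.29 in deficient BMPC libraries. Sdc1, the gene of CD138, was at 34.5 to 108 FPKM in BMPC libraries and at or below 1.11 elsewhere. BMPC libraries also held reads of marker genes of other bone marrow cells, among them cells that these antibodies would remove (myeloid cells, T cells and neutrophils). Of 11 early B markers 10 had a read there, with summed levels of 415 to 860 FPKM against 193 to 281 for nB and 278 to 389 for GCB, and Dntt, the terminal transferase of precursor lymphocytes, made up 305 to 581 of the BMPC sums while Erg was at 0. All 10 erythroid markers had a read (219 to 3114 summed, against 0.769 to 291 for nB and 0.423 to 48.2 for GCB). So did 11 of 12 neutrophil markers, all but Fcnb (21.3 to 701 summed, against 0 for nB and at most 0.461 for GCB). Of 12 T cell and myeloid markers 11, all but C1qa, had a read (146 to 446 summed, against 78.7 to 195 for nB and 92.8 to 146 for GCB). Pax5 and the GCB markers S1pr2, Mybl1 and Rgs13 were at 0 in every BMPC library. The part of such cells in the BMPC values below was not tested, and in a bulk sample fewer dividing cells and less RNA per cell cannot be told apart.

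The mitosis genes were near silent in nB, high in GCB and between the levels of nB and GCB in BMPC. The mean of log2(FPKM + 1) over the 55 genes was 1.04 to 1.51 across the 6 nB libraries, 5.97 to 6.07 across the 6 GCB libraries and 2.39 to 3.71 across the 6 BMPC libraries, without overlap. Of every 1000000 reads 578 to 798 fell on these genes in an nB library, 15658 to 16986 in a GCB library and 1827 to 4058 in a BMPC library. The median gene had a mean level of 1.03 FPKM for nB, 78.2 for GCB and 9.09 for BMPC. No gene lacked a read in any GCB library, whereas 7 to 21 genes per nB library and 1 to 19 per BMPC library had none. Levels were steady among GCB libraries and not among BMPC libraries, with a median coefficient of variation over the genes of 13.5% in GCB and 95.7% in BMPC.

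**Figure D2:**
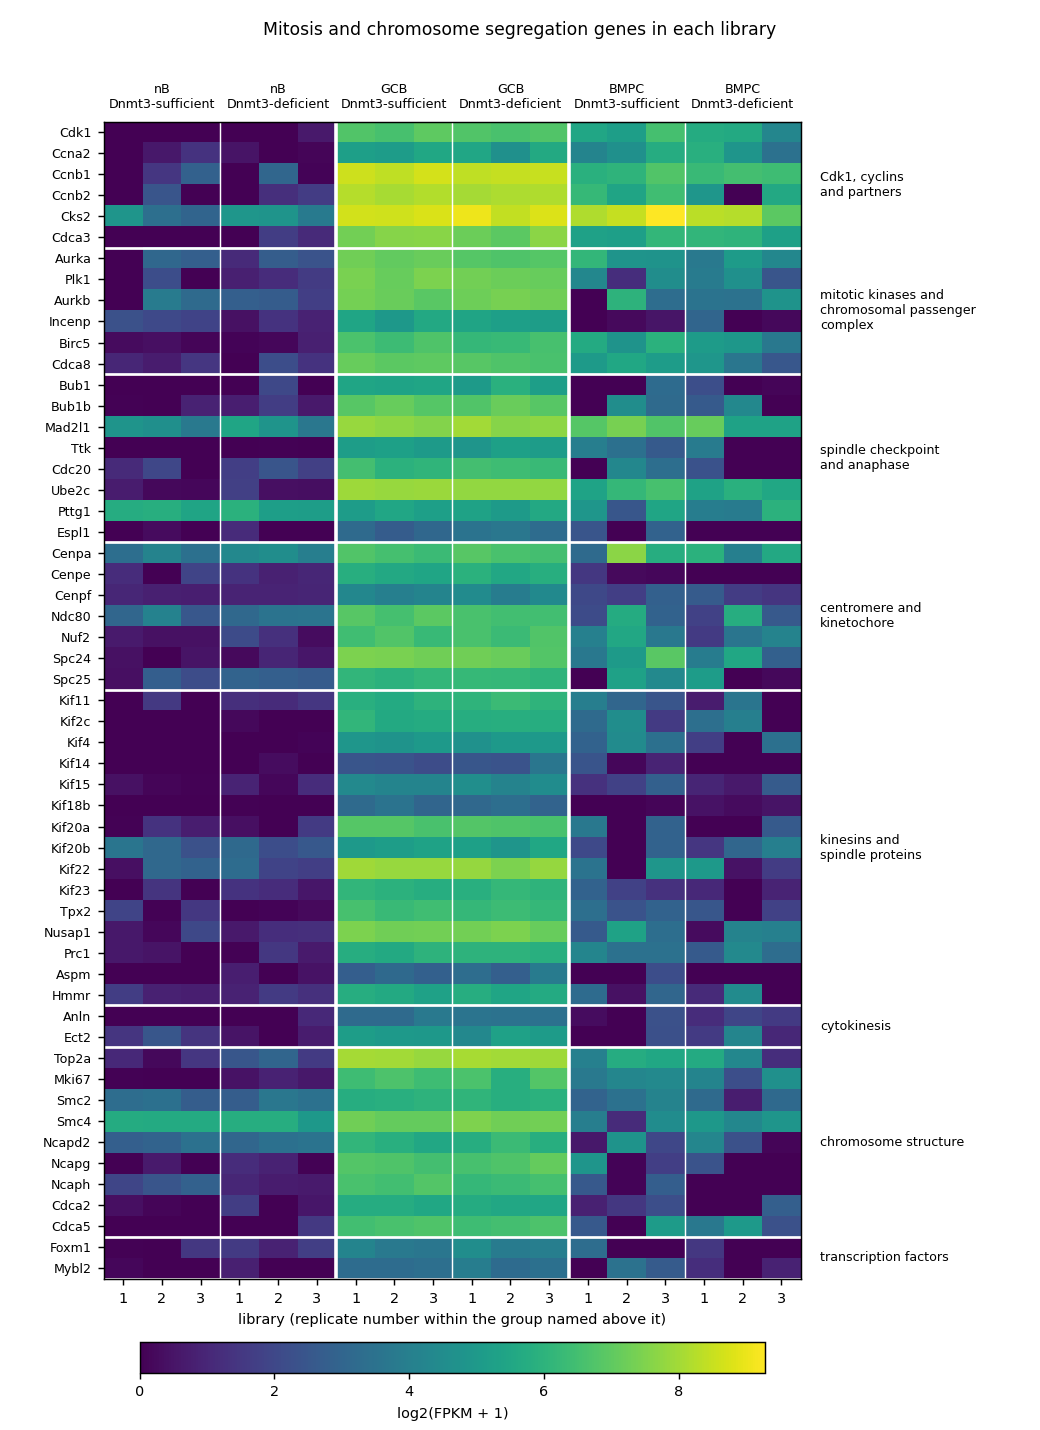
Level of each of the 55 genes (rows, grouped by role) in each of the 18 libraries (columns, grouped by cell type and genotype) as log2(FPKM + 1) on a color scale from 0. The GCB columns are bright for nearly every gene, nB columns are dark apart from a few genes such as Smc4, Pttg1 and Mad2l1, and BMPC columns differ from library to library.

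The comparison of GCB with nB asked which of these genes were raised in the germinal center. Of 55 genes tested, 54 were higher in GCB and 0 lower, where passing meant an adjusted p of 0.05 or less in limma on log2(FPKM + 1) and a difference of at least 1 on that scale. Over all 11018 genes tested 12.7% were higher and 17.1% lower by the same rule. The median difference was 4.89 for the mitosis genes and -0.16 for all genes. In 54 genes every GCB library lay above every nB library and in 0 below (13.8% and 14.9% of all genes tested). The libraries of a group came from separate mice or pools of mice, so these p-values measure the spread between such samples. A filter required FPKM above 1 in at least 2 of the libraries compared, and 23 of the 55 genes met it through GCB alone and so had to differ. Cdk1, Ccna2, Birc5, Ube2c, Espl1, Spc24, Mki67, Mybl2, Kif2c, Kif4, Kif14 and Kif18b, described below, were among these 23. Their p-values between GCB and nB are therefore no separate support for a rise. Of the 32 that met the filter within nB, 31 were higher in GCB. Adding 1 to FPKM understates the change of genes near 0.

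Cdk1 and its partners had the largest median rise of the roles (6.78). Cdk1, the kinase that starts mitosis, had no read in 5 of 6 nB libraries and 0.549 FPKM in the other one, and GCB libraries had 108, 95.1 and 124 FPKM (sufficient) and 108, 96.8 and 109 (deficient; log2 difference 6.64 ± 0.20 SE, adjusted p = 4.57e-12). Ccnb1, cyclin B1, had 0, 0.903 and 7.26 FPKM as the lowest, median and highest of 6 nB libraries and 332, 357 and 407 as those of GCB, the largest difference of the 55 genes on the log2(FPKM + 1) scale (7.26 ± 0.50, adjusted p = 2.13e-08). Ccnb2, cyclin B2, was close behind (7.25 ± 0.38), from 0, 0.694 and 4.41 FPKM to 258, 281 and 304. Cks2, a small subunit of Cdk complexes, had the highest GCB level of all 55 genes, at 340, 414 and 523 FPKM, but was already at 7.01, 19.8 and 28.3 in nB (4.59 ± 0.27). The groups did not overlap for any of the 6 genes of this role, and Ccna2 (4.85 ± 0.28) and Cdca3 (6.92 ± 0.26), which helps to degrade the mitotic inhibitor Wee1, completed it.

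All 6 genes of the mitotic kinases and the chromosomal passenger complex rose as well. Plk1, polo-like kinase 1, went from 0, 1.01 and 3.55 FPKM (lowest, median and highest, as below) to 137, 151 and 176 (6.31 ± 0.32, adjusted p = 1.09e-09). Birc5, the survivin subunit of the passenger complex, had 41 reads over the 6 nB libraries and reached 72.2, 87.7 and 104 FPKM in GCB (6.13 ± 0.21). Its partners Cdca8 (borealin, 5.75 ± 0.30), Aurkb (the kinase, 4.83 ± 0.48) and Incenp (the scaffold, 3.83 ± 0.22) had smaller differences. The mean nB levels of Aurkb and Incenp were 5.96 and 2.08 FPKM.

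Among 8 genes of the spindle checkpoint and anaphase 7 rose and Pttg1 did not pass. Ube2c, the ubiquitin-conjugating enzyme of the anaphase-promoting complex, had the largest rise and the highest GCB level of this role, from 0.120, 0.294 and 2.42 FPKM to 218, 223 and 239 (7.23 ± 0.24, adjusted p = 1.61e-11). Pttg1, securin, had 52.2, 54.98 and 42.1 FPKM in sufficient and 59.4, 35.3 and 34.8 in deficient nB libraries, against 34.3, 43.9 and 37.1 in sufficient and 39.3, 32.2 and 47.7 in deficient GCB libraries (-0.23 ± 0.17, adjusted p = 0.275). The groups overlapped, and Pttg1 was the only one of the 55 genes whose mean was lower in GCB (39.1 ± 5.85 SD, n = 6) than in nB (46.5 ± 10.5). Espl1, separase, which securin holds inactive, was low throughout and rose from at most 1.18 FPKM in nB to 5.54 to 11.9 in GCB (3.02 ± 0.27).

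The 7 centromere and kinetochore genes rose, but from different starting levels. Spc24 went from 0, 0.372 and 0.951 FPKM to 111, 152 and 174 (6.77 ± 0.19, adjusted p = 3.85e-12). Spc24 forms 1 complex with Ndc80, Nuf2 and Spc25, whose nB means were 9.65, 1.05 and 4.65 FPKM against 100.1, 91.6 and 67.9 in GCB, with differences of 3.32 ± 0.23, 5.65 ± 0.27 and 3.81 ± 0.31. Cenpa, the histone H3 variant of centromeres, went from 9.09 to 22.5 FPKM (nB) to between 79.1 and 115 (GCB; 2.64 ± 0.18).

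Every gene of the kinesins and spindle proteins, of cytokinesis, of chromosome structure and of the transcription factors passed. Kif22, a motor on chromosome arms, had the highest GCB level of 15 kinesins and spindle proteins, at 175, 227 and 247 FPKM against 0.290, 4.60 and 8.67 in nB (5.58 ± 0.40). Nusap1, a microtubule-bundling protein, had the largest rise of them (6.34 ± 0.27), from 0.132, 0.949 and 3.08 FPKM to 138, 159 and 175. The kinesin genes Kif2c, Kif4, Kif14 and Kif18b had no read in 5 of 6 nB libraries. For cytokinesis Ect2, which activates RhoA at the cleavage furrow, went from 0, 1.15 and 4.55 FPKM to 19.3, 32.5 and 38.6 (3.89 ± 0.27).

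In chromosome structure Top2a, topoisomerase II alpha, went from 0.141, 1.87 and 7.12 FPKM to 231, 252 and 266 (6.35 ± 0.25, adjusted p = 7.30e-11). Mki67, which encodes the proliferation marker Ki-67, went from 0, 0.202 and 0.849 FPKM to 55.6, 90.9 and 111 (6.12 ± 0.22). The condensin core subunits were not silent in nB: Smc4 was at 29.8, 51.2 and 54.2 FPKM there, the highest nB mean of the 55 genes (48.3 ± 9.24 SD, n = 6), and at 134, 152 and 176 in GCB (1.64 ± 0.14). Smc2, its partner in the same ring, had a mean of 8.70 FPKM in nB and 59.2 in GCB. The transcription factors were low even in GCB, with Foxm1 at 11.4, 14.3 and 22.5 FPKM (3.04 ± 0.31) and Mybl2, B-Myb, at 8.52, 9.09 and 14.1 (3.26 ± 0.25), against nB medians of 1.35 and 0.

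**Figure D3:**
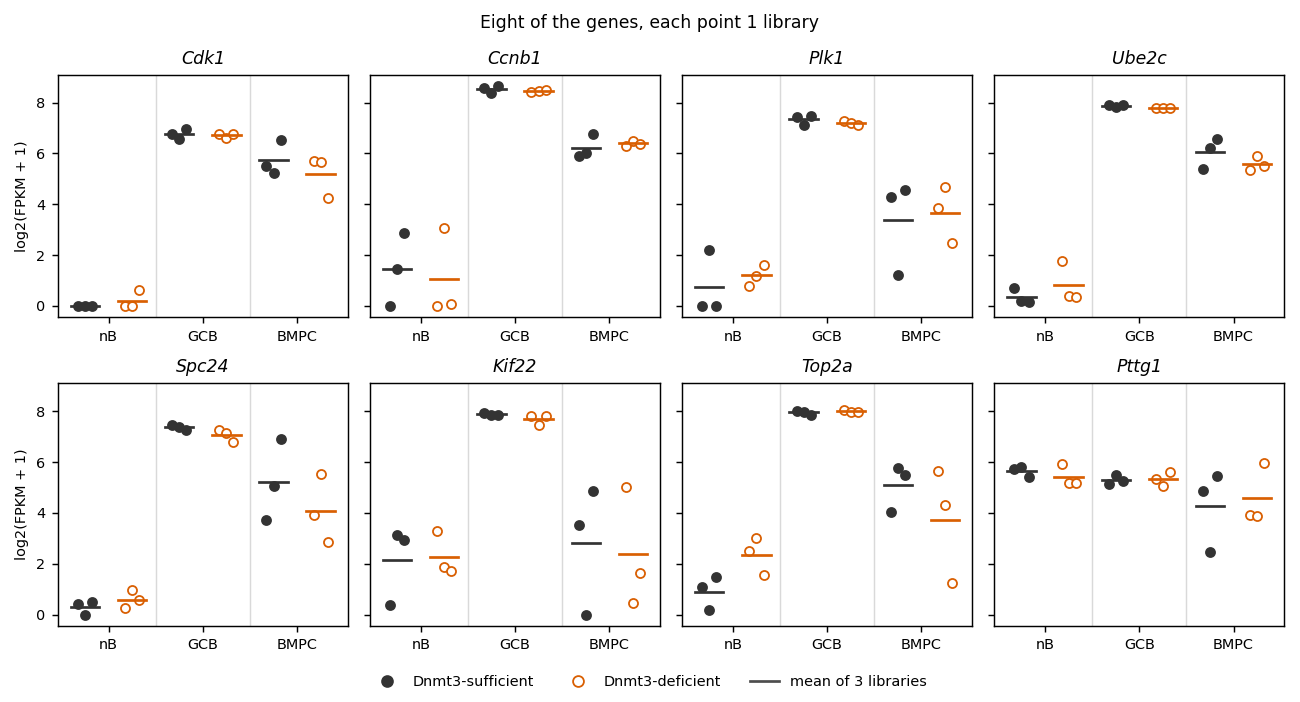
Level of 8 of the 55 genes in each library as log2(FPKM + 1) (y axis), by cell type, with filled points for Dnmt3-sufficient libraries, open points for Dnmt3-deficient libraries and a line at the mean of 3. For 7 genes all nB points lie below 4 and all GCB points above 6 with wider scatter in BMPC, whereas for Pttg1 the nB and GCB points overlap.

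Against GCB, BMPC had lower levels of nearly all of these genes. Of 55 tested, 51 were lower in BMPC and 0 higher (31.8% and 7.21% of all 10770 genes tested). In 47 every BMPC library lay below every GCB library and in 0 above (19.0% and 5.49% of all genes tested). Of the 50 genes that met the filter within BMPC, 46 were lower. The other 5 (Cenpe, Incenp, Kif14, Kif18b and Aspm) met it through GCB alone and so had to differ. The median difference was -2.98, against -0.76 over all genes. Scaling by the median of ratios moved the median of all genes by 0.15 to -0.61 and that of the mitosis genes to -2.79, so relative to all genes the mitosis genes were lower by 2.22 as deposited and by 2.17 after that scaling. Such scaling divides all values of a library by the same factor. Here and below it could therefore hardly change the difference between these medians. The mean level in BMPC was 15.7% of that in GCB at the median gene, below 10% in 16 genes and at 50% or above in 4. Counted from depth alone, Kif18b at its GCB level would have given 37.5 reads in the shallowest BMPC library, the fewest of the 55 genes. In BMPC 18.5% of gene and library pairs of the 55 genes had no read, against 15.1% over 6182 genes with GCB means in the same range. The part of depth in the low BMPC values was not tested.

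The share of the GCB level found in BMPC overlapped between roles, and the order of the role medians was not tested. It ran from 16.4% to 81.4% among genes of Cdk1, cyclins and partners, and from 2.14% to 28.8% among kinesins and spindle proteins. Its median was 38.3% for the 6 genes of Cdk1, cyclins and partners, 21.1% for the spindle checkpoint and anaphase, 20.9% for the transcription factors, 20.4% for centromere and kinetochore, 17.8% for mitotic kinases and the passenger complex, 15.2% for cytokinesis, 12.5% for chromosome structure and 10.1% for kinesins and spindle proteins. These roles also differ in median exon length, from 1928.5 bases for the first to 4819 for the kinesins and spindle proteins. Over the 55 genes the rank correlation of the BMPC to GCB difference with exon length was -0.20, and over 11522 genes it was -0.17, as a description of genes that share libraries. The part of transcript length in the order of the roles was not tested.

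**Figure D4:**
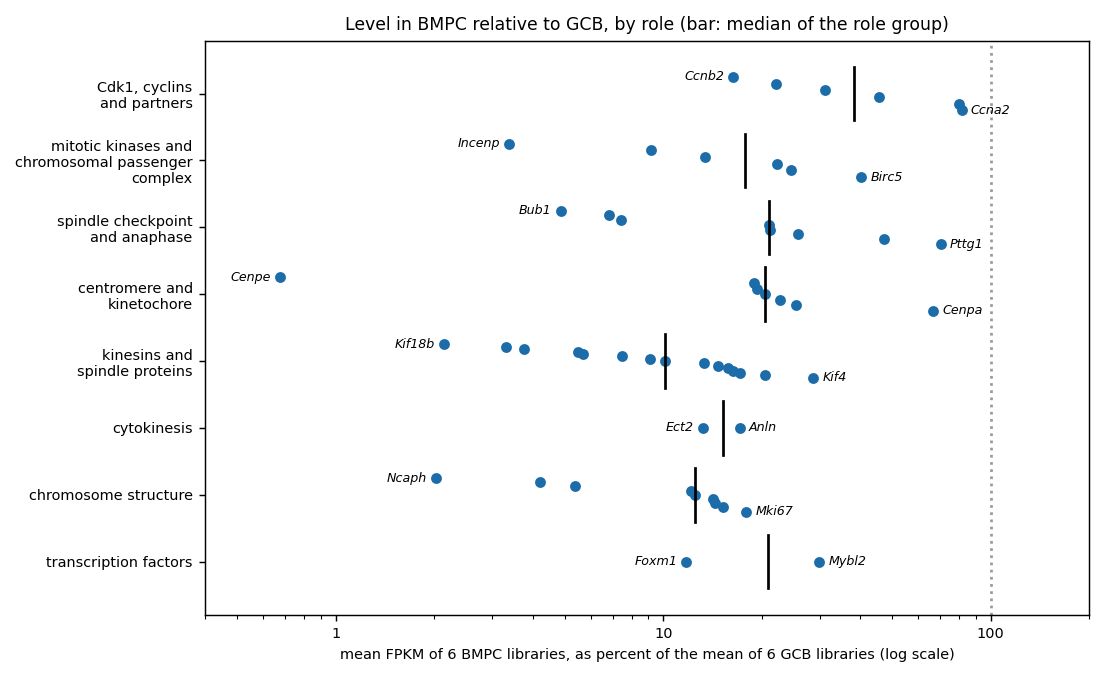
Mean level of each gene in 6 BMPC libraries as percent of its mean in 6 GCB libraries (log x axis), by role (rows), with a bar at the median of the role and the lowest and highest gene named. Values run from 0.674% (Cenpe) to 81.4% (Ccna2), and the dotted line at 100% is reached by none.

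The largest falls on the log2(FPKM + 1) scale were in genes of condensin, the kinetochore and the spindle. Ncaph, the kleisin subunit of condensin I, went from 71.6, 90.3 and 111 FPKM to 0, 0.0356 and 5.82 (-5.58 ± 0.45, adjusted p = 2.40e-06). Cenpe, the kinetochore motor, went from 42.8, 51.5 and 59.7 FPKM to 0, 0.0529 and 1.81 (-5.39 ± 0.36, adjusted p = 4.76e-07), and is among those that met the filter through GCB alone. In both genes 3 of 6 BMPC libraries had no read. Ncapg, another condensin I subunit (-5.23 ± 0.71), Kif22 (-5.21 ± 0.84) and Kif20a, a motor of the spindle midzone (-5.19 ± 0.64), followed, with BMPC medians of 1.17, 6.36 and 2.60 FPKM and GCB medians of 104, 227 and 107. Foxm1 had no read in 4 of 6 BMPC libraries (-3.19 ± 0.60), and Mybl2 was at 0, 1.08 and 10.3 FPKM in BMPC (-2.05 ± 0.56), overlapping GCB. Mki67 was at 3.66, 17.7 and 24.1 FPKM in BMPC (-2.55 ± 0.40).

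Other genes kept much of their GCB level. Ccna2, cyclin A2, was at 17.3, 24.4 and 52.8 FPKM in sufficient and 57.3, 27.6 and 10.05 in deficient BMPC libraries, against 24.1, 40.6 and 48.9 in GCB (-0.48 ± 0.43, adjusted p = 0.374). Cks2 was at 123, 313 and 621 FPKM in BMPC and 340, 414 and 523 in GCB (-0.46 ± 0.25, adjusted p = 0.156). Cenpa (-1.23 ± 0.61, adjusted p = 0.117) and Pttg1 (-0.89 ± 0.53, adjusted p = 0.183) were the others that did not pass, and in each of the 4 genes the groups overlapped. Without BMPC Dnmt3-sufficient replicate 2 the value for Cenpa was -1.76 and passed (adjusted p = 0.0127), as it did with library weights (-1.33, adjusted p = 0.0349). Among genes that passed, Cdk1 (-1.27 ± 0.31), the checkpoint gene Mad2l1 (-1.27 ± 0.29), Birc5 (-1.43 ± 0.30), Cdca3 (-1.70 ± 0.24) and the midbody motor Kif14 (-2.00 ± 0.42) had the smallest differences on the log2(FPKM + 1) scale. Kif14 was low throughout, at 3.51 to 11.4 FPKM in GCB and 0.116 to 4.29 in sufficient BMPC libraries with no read in the 3 deficient ones, so its difference on this scale was bounded by its GCB level. Cdk1 was at 18.1, 46.6 and 92.2 FPKM in BMPC, all below the lowest GCB library at 95.1, and Mad2l1 at 39.5, 110 and 164, all below 185.

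Against nB, the BMPC libraries had higher levels of many of these genes. Of 52 tested, 25 were higher in BMPC and 1 lower (8.77% and 36.0% of all 11042 genes tested), and 13 had every BMPC library above every nB library and 1, Smc4, below (6.27% and 19.6% of all genes tested). Kif14, Kif18b and Aspm did not reach the filter. Of the 32 genes that met the filter within nB, 12 were higher in BMPC and 1 lower. The other 20, among them Cdk1, Ube2c, Birc5, Cenpf and Kif15, met it through BMPC alone, the group where they were higher, and 13 of them passed as higher. The p-values of these 20 genes between BMPC and nB are therefore no separate support for a rise. The counts by role below include such genes. The median difference over the 52 was 1.32 against -0.87 over all genes, and after scaling by the median of ratios 1.37 against -0.76. Cdk1 (5.37 ± 0.42, adjusted p = 1.25e-06), Ube2c (5.22 ± 0.41), Cdca3 (5.22 ± 0.41), Ccnb1 (5.07 ± 0.61) and Birc5 (4.70 ± 0.41) rose most. Ube2c was at 39.5, 51.4 and 95 FPKM in BMPC, Cdca3 at 37.1, 51.1 and 69.6, Ccnb1 at 58.2, 79.8 and 107 and Birc5 at 12.0, 31.4 and 60.5, and none of these overlapped nB. Among the other genes that passed, Cenpf, a large kinetochore protein (1.15 ± 0.36), Kif15 (1.23 ± 0.43), Tpx2, an activator of Aurka (1.54 ± 0.49), and Mad2l1 (1.95 ± 0.41) rose least. Their nB medians were 0.892, 0.228, 0.121 and 25.1 FPKM and their BMPC medians 2.63, 2.00, 4.40 and 110. Cenpf fell short of the size required without BMPC Dnmt3-deficient replicate 1 (0.96) or BMPC Dnmt3-sufficient replicate 3 (0.99). Kif15 did not pass with sex as a covariate (adjusted p = 0.0671) or without any 1 of 5 libraries (sufficient nB 2 or 3, deficient nB 2, sufficient BMPC 3 or deficient BMPC 3), with adjusted p from 0.0542 to 0.0750. Tpx2 did not pass with a pseudocount of 0.1 (adjusted p = 0.0528) or without nB Dnmt3-sufficient replicate 2 (adjusted p = 0.0591), and without the latter neither did Nusap1 (adjusted p = 0.0523). All 6 genes of Cdk1, cyclins and partners passed, with 4 of 6 kinases and passenger genes, 3 of 8 of the checkpoint and anaphase, 3 of 7 of the kinetochore, 6 of 12 kinesins and spindle proteins and 3 of 9 of chromosome structure. Neither transcription factor nor either cytokinesis gene did, but the cytokinesis gene Anln (1.04 ± 0.41, adjusted p = 0.0504) passed under 8 alternatives, with adjusted p from 0.0119 to 0.0461, and Mybl2 passed under 4, with adjusted p from 0.00208 to 0.0358.

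Smc4 was the one gene that passed as lower in BMPC than in nB, at 1.21, 20.2 and 29.6 FPKM against 29.8, 51.2 and 54.2 (-1.65 ± 0.51, adjusted p = 0.0177). Pttg1 also passed as lower without sufficient BMPC 3 (-1.41, adjusted p = 0.0414), without deficient BMPC 3 (-1.46, adjusted p = 0.0301) and in the fit to all 18 libraries (-1.11, adjusted p = 0.0460), and Incenp without deficient BMPC 1 (-1.32, adjusted p = 0.00418). The values for the condensin partners of Smc4, namely Smc2 (-0.29 ± 0.50), Ncapd2 (-0.86 ± 0.77) and Ncaph (-0.69 ± 0.46), did not pass.

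The BMPC libraries were not alike in these genes. The mean of log2(FPKM + 1) over the 55 genes was 3.02, 3.08 and 3.71 in the sufficient libraries and 2.998, 2.60 and 2.39 in the deficient ones. The 24 S phase genes, a list for DNA replication and nucleotide synthesis, summed to 1349, 1570 and 1661 FPKM in the sufficient and 1146, 973 and 702.3 in the deficient libraries. Erythroid markers summed to 1737, 1514 and 3114 and to 1294, 398 and 219, early B markers to 760, 689 and 814 and to 478, 860 and 415, and neutrophil markers to 566, 110 and 195 and to 21.3, 701 and 602. Plasma cell markers summed to 29721, 24064 and 19050 in the sufficient and 43213, 51686 and 34204 in the deficient libraries. The library with the highest mitosis level thus had the highest erythroid sum and the lowest plasma cell sum, and the library with the lowest mitosis level had the lowest erythroid and S phase sums. The plasma cell sum of the latter, 34204, was however the lowest of the deficient libraries. Mitosis genes outside the 55 summed to 1958, 2126 and 2665 FPKM in the sufficient and 1769, 1776 and 1800 in the deficient libraries. Among the deficient libraries their order was the reverse of that of the 55 genes. The part of these marker sums in the mitosis levels was not tested.

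**Figure D5:**
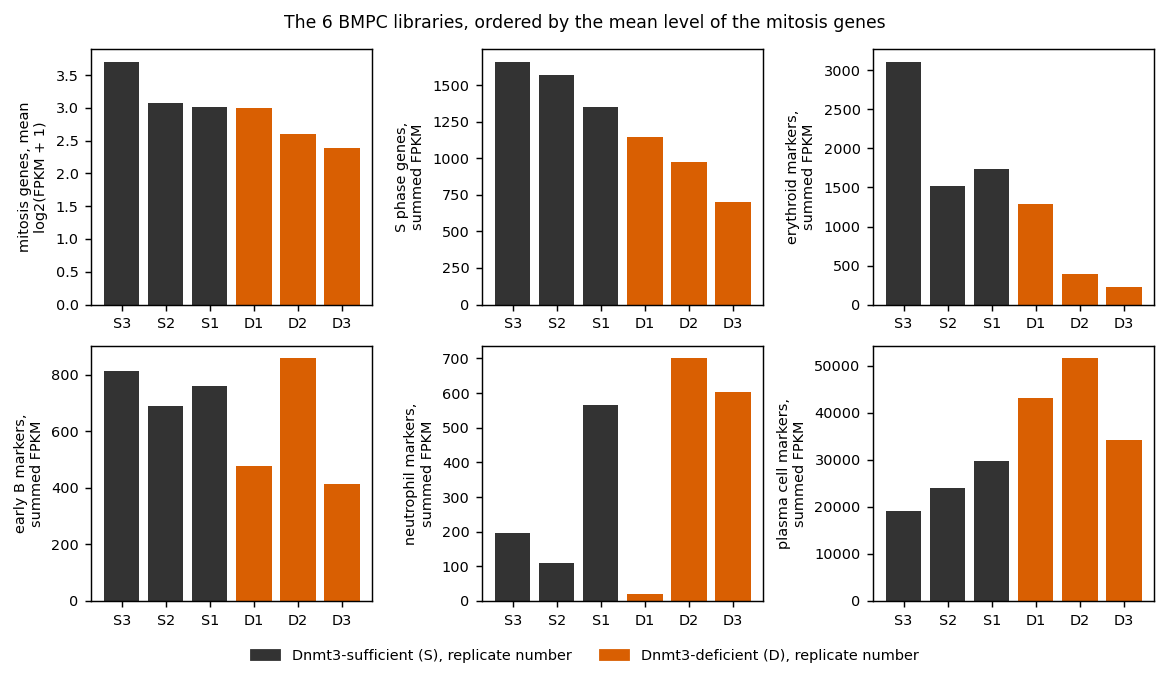
Mean log2(FPKM + 1) of the 55 mitosis genes and summed FPKM of the S phase, erythroid, early B, neutrophil and plasma cell lists (y axes, from 0) in the 6 BMPC libraries, ordered by the first panel (S, Dnmt3-sufficient; D, Dnmt3-deficient, with replicate number). Mitosis genes run from 3.71 to 2.39 and S phase genes from 1661 to 702.3 in the same order, while early B and neutrophil sums follow no such order.

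The genotype comparisons asked whether loss of Dnmt3a and Dnmt3b altered these genes within a cell type. In nB 32 of the 55 genes could be tested and 0 passed, with 4 at an unadjusted p under 0.05 by limma and also 4 by voom, limma's test on read counts (0.0292% of all 10257 genes tested passed, and 5.13% had such a p by limma and 4.65% by voom). In GCB 55 were tested and 0 passed, with 1 at an unadjusted p under 0.05 by limma and 2 by voom (0.00% of 9840 genes passed, and 5.87% and 5.33% had such a p). In BMPC 50 were tested and 0 passed, with 1 at an unadjusted p under 0.05 by limma and 2 by voom (0.00% of 8724 genes passed, and 7.43% and 7.82% had such a p). The precision differed widely, with a median standard error over the genes of 0.59 for nB, 0.17 for GCB and 1.11 for BMPC on the log2 scale. In GCB, where it was best, the differences of the 55 genes ran from -0.36 to 0.50 with a median of 0.03. At the BMPC standard error a count of 0 does not show that levels were equal. The study, which used edgeR, did report genes that were higher and genes that were lower in deficient BMPC. In a fit to all 18 libraries 459 genes passed between genotypes in BMPC, none of them among the 55.

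In GCB the gene with the smallest p was Aurka, aurora kinase A, at 152, 133 and 141 FPKM in sufficient and 112, 106 and 114 in deficient libraries (-0.36 ± 0.13, unadjusted p = 0.0183, adjusted p = 0.825). The groups did not overlap, as was the case for 7 of the 55 genes, 3 higher and 4 lower in deficient cells (11.4% of all genes tested in either direction). Cdca8 was at 139, 122 and 125 FPKM against 115, 105 and 96.3 (-0.29 ± 0.14, adjusted p = 0.842). Spc24 was at 174, 168 and 152 against 152, 141 and 111 (-0.30 ± 0.15, adjusted p = 0.844).

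In nB the smallest p values belonged to genes of a few FPKM. Ncaph was at 2.79, 4.49 and 6.39 FPKM in sufficient and 0.982, 0.617 and 0.602 in deficient libraries (-1.63 ± 0.50, unadjusted p = 0.00689, adjusted p = 0.930). Top2a was at 1.10, 0.141 and 1.76 FPKM against 4.61, 7.12 and 1.97 (1.45 ± 0.57, adjusted p = 0.953). Ect2 was at 1.68, 4.55 and 1.66 against 0.409, 0 and 0.642 (-1.37 ± 0.55, adjusted p = 0.953). These 3 and Incenp were the genes whose groups did not overlap, 1 higher and 3 lower (9.52% of all genes tested in either direction).

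In BMPC 40 of the 50 genes tested had a lower estimate in deficient libraries (57.6% of all genes tested). The median was -0.60 against -0.19 over all genes, and -0.52 against -0.06 after scaling by the median of ratios. In nB 28.1% of the mitosis genes tested had a lower estimate (48.3% of all genes tested), and in GCB 49.1% (49.1%). Genes read from the same libraries are not separate evidence, and these shares were not tested. In BMPC no gene passed. Ccnb2 was at 73.3, 42.3 and 84.8 FPKM in sufficient and 28.6, 0 and 47.3 in deficient libraries (-2.53 ± 1.17, unadjusted p = 0.0496, adjusted p = 0.656). Cks2 was at 291, 353 and 621 FPKM against 320, 306 and 123 (-0.80 ± 0.40, adjusted p = 0.656). Mad2l1 was at 113, 164 and 108 against 138, 39.5 and 40.0 (-1.05 ± 0.53, adjusted p = 0.656). Groups did not overlap for 3 of the 50 genes tested, Ncaph, Cdca8 and Kif23, all lower (13.0% of all genes tested in either direction). Of 165 gene and library pairs 22 had no read in sufficient and 39 in deficient BMPC, whose libraries were shallower on the whole, and Espl1, Cenpe, Kif14, Aspm and Ncaph had no read in any of the 3 deficient libraries. As shown above, the marker sums for erythroid and plasma cells differed between these same libraries.

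The difference of the genotype effect between cell types was tested as an interaction, and 0 of the 55 genes passed for GCB and nB, 0 of 52 for BMPC and nB and 0 of 55 for BMPC and GCB, with 5, 3 and 1 at an unadjusted p under 0.05 by limma and 8, 5 and 10 by voom. Of all genes 0.00%, 0.145% and 0.121% passed, and 5.41%, 7.24% and 6.90% had such a p by limma and 5.49%, 8.60% and 9.09% by voom. Ncaph (1.36 ± 0.39, adjusted p = 0.836), Top2a (-1.40 ± 0.50, adjusted p = 0.877) and Incenp (1.12 ± 0.44, adjusted p = 0.901) had the smallest p for GCB and nB. Ect2 (2.88 ± 1.20, adjusted p = 0.679), Kif23 (-1.91 ± 0.82, adjusted p = 0.685) and Espl1 (-2.08 ± 0.90, adjusted p = 0.685) had them for BMPC and nB. Espl1 (-2.29 ± 0.97, adjusted p = 0.714), Kif14 (-1.65 ± 0.84, adjusted p = 0.734) and Mad2l1 (-1.12 ± 0.58, adjusted p = 0.736) had them for BMPC and GCB.

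Other genes of mitosis, 118 in the table and none of them among the 55, were also mostly higher in GCB than in nB and lower in BMPC than in GCB. Between GCB and nB 74 of 117 tested were higher and 1 lower (12.7% and 17.1% of all genes tested). The median was 1.65, against 4.89 for the 55 genes. Shcbp1 (6.499 ± 0.34), Esco2, a cohesin acetyltransferase (6.15 ± 0.23), and Ckap2l, a spindle protein (5.80 ± 0.27), rose most, from means of at most 0.796 FPKM to means of 136, 80.7 and 72.3. Esco2 and Ckap2l met the filter through GCB alone and so had to differ. The counts for this list were not split by the filter, so they include such genes and are no separate support. Nipbl, the cohesin loader, was the one that fell, from a mean of 27.8 FPKM to 12.8 (-1.04 ± 0.19). Without any 1 of 4 libraries (sufficient nB 2, deficient nB 1, sufficient GCB 2 or deficient GCB 2) the Nipbl difference was -0.91 to -0.9986 and fell short of the size required. Between BMPC and GCB 79 of 117 were lower and 0 higher (31.8% and 7.21% of all genes tested), with a median of -1.90. Cdc25b, the phosphatase that activates Cdk1, fell most (-6.19 ± 0.40), from 111 to 145 FPKM in GCB to at most 4.21 in BMPC. Cep55 (-4.91 ± 0.65) and Gtse1 (-4.81 ± 0.44) followed, and both met the filter through GCB alone and so had to differ. Between BMPC and nB 16 of 114 were higher and 18 lower (8.77% and 36.0% of all genes tested). The median was -0.12, against 1.32 for the 55 genes, and the difference between the lists was not tested. Cks1b, the sister of Cks2 (4.66 ± 0.33), and the kinetochore genes Cenpk (4.20 ± 0.41) and Ska1 (3.40 ± 0.53) rose most, and Cdc25b (-4.34 ± 0.45), Anapc4 (-3.48 ± 0.60) and Zw10 (-2.85 ± 0.74) fell most. Ska1 met the filter through BMPC alone, the group where it was higher. The BMPC level was 33.9% of the GCB level at the median of 117 such genes, 29.2% at the median of 24 S phase genes, 15.7% at that of the 55 genes and 62.8% at that of 9356 genes with a GCB mean above 1 FPKM.

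The S phase genes rose in GCB in 23 of 24 cases, with Cdt1 the exception (12.7% of all genes tested rose). In BMPC 11 of 24 were higher than in nB (8.77% of all genes tested) and 16 of 24 lower than in GCB (31.8%). Like Ccna2 and Cks2, some stood near their GCB level in BMPC: Tyms, thymidylate synthase, had 36.7, 58.9 and 81.6 FPKM in BMPC against 52.4, 67.6 and 86.8 in GCB (-0.27 ± 0.23), while Cdc45, a helicase subunit, went from 69.3, 99.99 and 119 to 0, 3.31 and 9.08 (-4.93 ± 0.58). Of 13 inhibitor and quiescence genes tested between GCB and nB 5 were lower and 1 higher (17.1% and 12.7% of all genes tested). Cdkn1b, the inhibitor p27, had 15.04, 23.3 and 33.8 FPKM among nB libraries, 1.02, 1.46 and 2.56 among GCB libraries and 14.8, 28.4 and 41.5 among BMPC libraries. It was lower in GCB than in nB (-3.26 ± 0.25) and higher in BMPC than in GCB (3.48 ± 0.37), without overlap, the reverse of the direction of most of the 55 genes. Both were the largest differences of this list in their direction. Between BMPC and GCB 2 of 13 genes of the list were higher and 2 lower (7.21% and 31.8% of all genes tested). The median was -0.54, and 10 of the 13 estimates were negative.

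By the annotation of the build the reads were mapped to (mm9, NCBIM37), the 55 genes lie on 17 chromosomes, with at most 9 on 1 of them, chromosome 2. Cdk1 spans chromosome 10 from 68799383 to 68815686, Ccnb1 chromosome 13 from 101548605 to 101556525, Ube2c chromosome 2 from 164595398 to 164604322 and Pttg1 chromosome 11 from 43233752 to 43239753, and their values count reads over all exons. Genes with both CHR and CCAAT letters in a promoter had a median difference between GCB and nB of 5.10 (n = 29) and those with a promoter lacking the pair 4.65 (n = 17), and between BMPC and GCB of -2.96 and -2.74. The ranges overlapped, from 2.53 to 7.25 and from -0.23 to 7.26 for GCB and nB.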

How the data were processed

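RNA was measured in 18 libraries of sorted mouse cells, made from PCR-amplified cDNA. According to the study's methods the authors mapped reads to mm9 with TopHat, keeping at most 1 placement per read, counted them over the exons of UCSC KnownGene models in R (3.2.2 per the submitters' processing notes), and deposited FPKM per gene for all libraries in 1 table; whether counting used strand is not given in the sources used here. Columns of the authors' own comparisons, which hold fold changes and test results, were not used, and 0 value columns lacked a sample. FPKM times exon length, divided by its smallest value above 0 in the same library, gave whole numbers for 100% of values (tolerance 0.01). That smallest value was taken as 1 read, and the depths and read counts given here rest on this. Of the genes, those exceeding 1 FPKM in 2 or more libraries of a comparison were tested with limma (3.58.1, R 4.3.3, trended variance) on log2(FPKM + 1), using only the libraries compared, with Benjamini-Hochberg adjustment over all genes tested. A call needed an adjusted p no larger than 0.05 together with a difference of 1 or more. Groups came from the sample labels. The code was tested on simulated data.

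The 55 genes and all lists were chosen with earlier results of these data known. Genes named in full were, by role, those with the highest GCB level and largest changes, and for genotypes those with the smallest p, with Foxm1, Mybl2 and Mki67 always given. Other genes of a complex or list named beside them were chosen after their values were seen. The alternatives tried were another scaling, a pseudocount of 0.1, other filters, leaving out immunoglobulin genes, a fit to all 18 libraries and library weights. Sex as a covariate, voom on recovered reads, other thresholds and leaving out each library were also tried. Only 1 gene of the table counted as an immunoglobulin gene. Leaving it out therefore could not test the part of immunoglobulin RNA in the BMPC values. Certain items of the genotype and a marker gene are not reported here.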

Additional observations from a re-analysis of the deposited data

How the results depend on the processing

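The counts among the 55 genes held under the alternatives run: 54 higher in GCB than in nB under each, 49 to 52 lower in BMPC than in GCB and 21 to 32 different between BMPC and nB (26 as reported), with 0 between genotypes. At an adjusted p of 0.01, 18 of the other mitosis genes passed between BMPC and nB (34 as reported). The summed level of the 55 genes in GCB was 4645 FPKM after scaling by the median of ratios (5364 as deposited). Leaving out 1 library at a time gave 54 to 54, 23 to 30 and 51 to 52 genes for GCB against nB, BMPC against nB and BMPC against GCB, 0 to 0 for each genotype comparison, and 0 to 1 for the interactions of BMPC with nB and with GCB, where Ttk and Mad2l1 respectively passed without BMPC Dnmt3-deficient replicate 1. The Foxm1 difference between BMPC and nB (-0.15) was 0.041 with library weights and -0.71 to 0.12 on leaving out 1 library, passing under none. Mki67 did not pass between BMPC and GCB with voom (adjusted p = 0.0612), and Mybl2 passed between BMPC and nB with voom, sex as a covariate, all 18 libraries or without BMPC Dnmt3-sufficient replicate 1 (1.72, adjusted p = 0.00208). Nipbl did not pass between GCB and nB in the fit to all 18 libraries (adjusted p = 0.0786). In the fit to all 18 libraries 459 genes, none of the 55, passed between genotypes in BMPC, against 0. With a replicate block for the shared title words of the GCB libraries, 0 of the 55 genes passed and 2 had an unadjusted p under 0.05. Those words were not shown to mark a pairing, since same-named libraries deviated together with correlations of 0.000792, -0.0188 and 0.0259. In the other comparisons no paired analysis was possible because labels share no number. Depth limits BMPC most, where 61 of 330 gene and library pairs had no read. The cause of these changes was not tested.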
